A study of Glycyrrhiza uralensis with 24 samples.

Results

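The comparison described here is that of aerial parts (stems and leaves) of Glycyrrhiza uralensis seedlings kept for 12 h in 150 mM NaCl with aerial parts kept for 2 h in the same solution. Its members were chosen by their labels alone, and are the 3 libraries at 12 h and the 3 libraries at 2 h, 6 of the 24 libraries in the series. All 6 came from seedlings labelled as 60 days old, and the salt was given in a nutrient solution (MS). The treatment protocol in the labels also calls this a simulated drought, while the sample descriptions call it salt stress. The salt concentration and times are taken as labelled. No control entered the comparison. Its arms therefore share the medium and the title pattern, in both of which the controls differ from the salt groups. The salt came with that medium, so hours in the medium may differ between the arms as hours in salt do. An effect of the medium or of handling was not tested. Values of the 3 aerial libraries at 6 h of salt, of the 3 aerial controls in distilled water and of the root libraries are set beside the comparison where they bear on the same genes. The series as a whole asked which genes and pathways accompany the accumulation of active compounds in this licorice species under salt. The labels used here give hours in salt and no clock time of treatment or harvest. The hour of day at harvest may therefore have differed between the groups as well, and its part in the changes was not tested. The labels do not say whether the 3 libraries of a group came from separate plants, so the p-values reflect variation among libraries that may be partly technical.

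Salt acts on shoots in stages. Water uptake falls first, which raises abscisic acid and closes stomata, and sodium reaches the leaves in the transpiration stream afterwards, where it is stored in vacuoles or balanced by compatible solutes. Early transcriptional responses of leaves to salt are therefore often transient. A contrast of an early with a later time in salt picks up both transcripts that moved early and returned and transcripts that moved late. Many leaf transcripts also follow the circadian clock.

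The files give expression as TPM, a share of the transcripts in a library after scaling for transcript length. Gene IDs carry no names in the files, so the roles of single genes are not given, leaf markers could not be looked up, and single IDs are shown only as examples of each kind of change. The 6 libraries correlated with each other at 0.81 to 0.933 over 16034 IDs on the log2(TPM + 1) scale and with the root libraries of the same times at 0.557 to 0.668. The listed TPM summed to 436106 ± 3620 (SD, n = 3) at 2 h and to 451569 ± 9850 at 12 h, for which a two-sided exact permutation test gave p = 0.1, the lowest value possible with 3 against 3 libraries (0.4 after adjustment over 4 such tests). IDs above 0 numbered 17990, 18282 and 18710 at 2 h and 18146, 18561 and 18070 at 12 h (exact permutation p = 0.8, adjusted 1). IDs of at least 1 TPM (exact permutation p = 1) and the percent of the listed TPM held by the 100 highest IDs (exact permutation p = 0.5) also did not pass.

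Leaf and stem expression at 12 h of salt differed from that at 2 h in 1472 of 15250 IDs tested, or 9.65%. Of these, 850 IDs were higher at 12 h (5.57% of those tested) and 622 were lower (4.08%), in limma at a Benjamini-Hochberg adjusted p under 0.05. The changes were often large: 697 of the 850 higher IDs and 578 of the 622 lower IDs moved at least 2-fold, and 195 and 266 moved at least 4-fold. Fewer IDs fell than rose, but the falls were steeper at the extreme, with 51 IDs lower by at least 16-fold against 23 higher by as much. The higher IDs typically started low, with a median of 9.67 TPM at 2 h against 31.2 TPM at 12 h, and the lower IDs started at a median of 39.4 TPM and ended at 7.90 TPM.

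**Figure D1:**
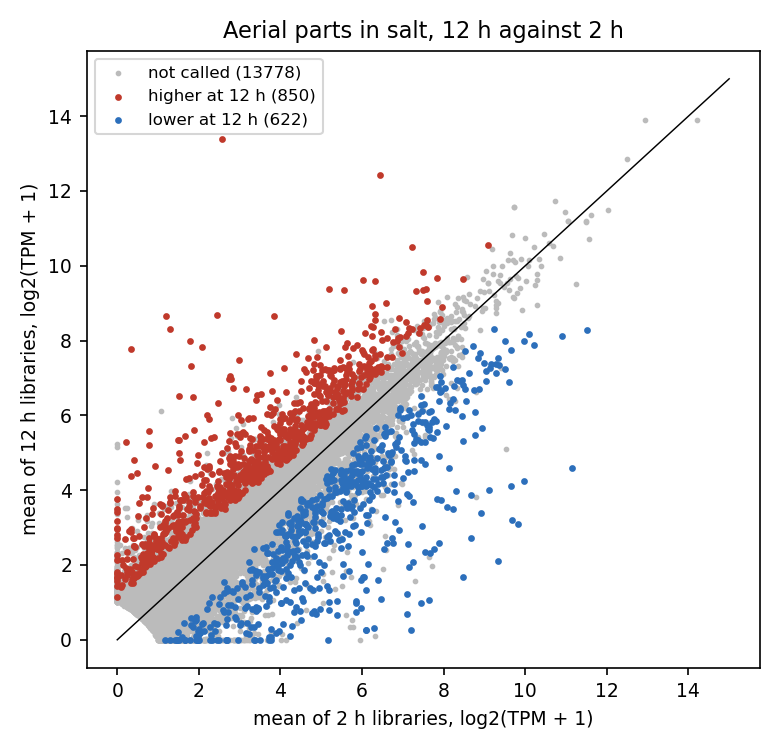
Mean level of each tested ID at 2 h (x axis) and at 12 h (y axis) in aerial parts, both as log2(TPM + 1), with 1 point per ID and the diagonal marking equal means. The 850 IDs higher at 12 h lie above the diagonal in red and the 622 lower IDs lie below it in blue.

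All 1472 called IDs had their 3 libraries of one time above the 3 of the other. Such a separation of the groups was seen in 4800 of the 15250 IDs tested (31.5%), 3000 of them with 12 h on top and 1800 with 2 h on top. An unadjusted p under 0.05 was reached by 3798 IDs (24.9%). The share of higher IDs among those called was 57.7% with TPM as deposited, 53.4% after scaling libraries to their listed totals and 47% under median-of-ratios scaling, so which direction held more IDs was not fixed by these data. Of the called IDs, 604 higher and 591 lower ones were called in the same direction under all of these scalings. The median log2 change over all IDs tested was 0.06 as deposited, 0.02 after scaling to listed totals and -0.025 under median-of-ratios scaling. The count varied with the library left out. Without 2 h replicates 1, 2 and 3, 778 higher and 781 lower, 423 and 339, and 665 and 477 IDs were called. Without 12 h replicates 1, 2 and 3 these were 393 and 422, 221 and 234, and 338 and 313. A smaller group also weakens the test, so a lower count cannot be laid to the library left out. In all of these fits, 410 of the 1472 IDs stayed called in the same direction, 198 higher and 212 lower. The 2 h libraries varied more than the 12 h libraries, with a median SD per ID of 0.404 against 0.293 on the log2 scale, and a larger SD at 2 h in 9570 IDs.

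The share of IDs called rose with expression level. It was 1.86% of the 4031 IDs with a mean of 0.5 to 2 TPM, 6.47% of the 5273 IDs from 2 to 10 TPM, 16.4% of the 5191 IDs from 10 to 100 TPM and 27.4% of the 753 IDs at 100 TPM or more. The median absolute change differed little between these classes, at 0.44, 0.50, 0.43 and 0.57 on the log2 scale. In the highest class 105 IDs rose and 101 fell. Among the 100 IDs with the highest mean, all at 428 TPM or more, 8 rose and 13 fell, and 47 had groups that did not overlap. Over all IDs tested, 5.57% were called higher, 4.08% were called lower and 31.5% had groups that did not overlap.

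**Figure D2:**
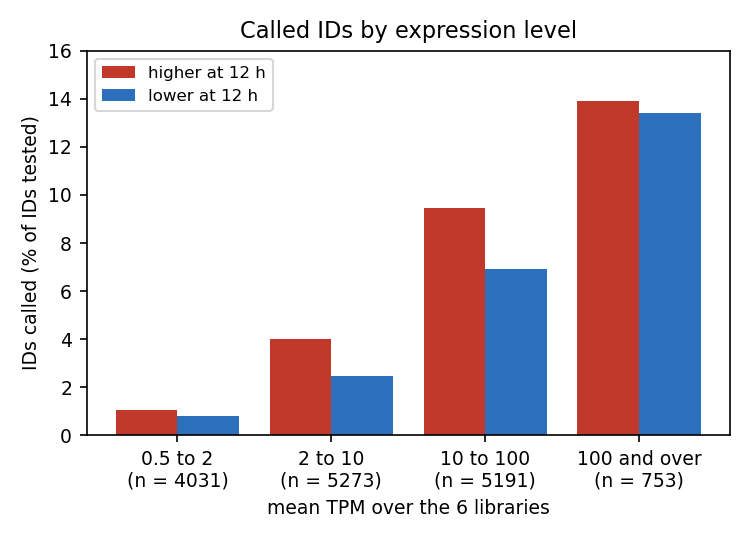
Percent of tested IDs called higher (red) or lower (blue) at 12 h than at 2 h in aerial parts, by mean TPM over the 6 libraries, with the number of IDs tested under each class. Both bars grow from 1.07% and 0.794% in the lowest class to 13.9% and 13.4% in the highest.

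The called IDs held a sizeable part of the transcript pool at one of the times. The 850 higher IDs together held 21383, 18511 and 18830 TPM in the 2 h libraries and 73958, 81173 and 77372 TPM in the 12 h libraries. The 622 lower IDs went the other way, from 61677, 71458 and 66056 TPM to 14679, 13547 and 15385 TPM. These IDs were chosen on the same contrast, so the sums describe the size of the turnover and are not tested. The gain was concentrated: 29 of the 850 higher IDs carried 50% of the 57926 TPM gained and the 10 with the largest gains 38.8%, while 44 of the 622 lower IDs carried 50% of the loss. In the 6 h libraries the higher IDs held 53604, 48552 and 50965 TPM and the lower IDs 35795, 34400 and 37012 TPM, so all 3 of these libraries lay between the 2 h and the 12 h libraries on both sums. The aerial controls lay between them as well, at 46337, 66176 and 43949 TPM and at 26812, 30738 and 28678 TPM.

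Glyur000380s00017141 showed the largest rise among the IDs that met the conditions for an example. Its 2 h libraries stood at 5.11, 8.05 and 1.75 TPM and its 12 h libraries at 8656.42, 11668.87 and 12072.91 TPM. The lowest 12 h library was 1075 times as high as the highest 2 h library, and the log2 change was 10.97 (SE 0.43, limma adjusted p = 0.000222). This ID alone made 18.6% of the TPM gained by the higher IDs. At 6 h its libraries stood at 2892.49, 1870.82 and 1724.82 TPM, below all of the 12 h libraries and within the range of the controls, which was 1210.40 to 2901.67 TPM. In roots it stayed at 12.25 TPM or less in every library.

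Glyur000027s00001583 rose from 0.99, 1.47 and 1.40 TPM at 2 h to 478.15, 458.78 and 281.20 TPM at 12 h, a log2 change of 7.44 ± 0.24 (SE; limma adjusted p = 0.000168). The groups were far apart, but the 12 h libraries overlapped those at 6 h, at 511.91, 801.58 and 442.44 TPM, and those of the controls, at 520.40, 826.08 and 394.44 TPM. The 2 h libraries were therefore the ones that stood apart in aerial parts. In roots it stood at 7.50, 4.16 and 15.88 TPM at 2 h and at 78.36, 70.16 and 13.51 TPM at 12 h. There the groups overlapped and the change was not called (2.26, SE 0.60, limma adjusted p = 0.215). The difference between the organs in this change was called (roots minus aerial parts -5.18, SE 0.85, limma adjusted p = 0.0131). Unlike in aerial parts, the root libraries at 12 h as well as at 2 h lay below all those at 6 h and all controls. The root 6 h libraries were at 208.59, 363.47 and 155.86 TPM and the root controls at 480.53, 387.15 and 142.94 TPM.

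Glyur003440s00037452 was one of the 2 examples of a fall. It stood at 180.44, 610.69 and 1127.35 TPM at 2 h and at 3.40, 3.37 and 3.11 TPM at 12 h, a log2 change of -6.87 ± 0.61 (SE; limma adjusted p = 0.00233). The 12 h libraries were close to each other, while those at 2 h differed widely. The 6 h libraries, at 8.96, 319.99 and 74.34 TPM, were wider still as ratios to each other. In TPM they were narrower, with an SD of 164 against 474 at 2 h. In roots it fell too, from 569.88, 152.54 and 990.27 TPM to 27.17, 19.65 and 12.42 TPM, a change of -4.48 ± 0.71 (SE; limma adjusted p = 0.0268). The difference between organs was not called for it (2.38, SE 1.01, limma adjusted p = 0.344). Against the controls the organs differed. In aerial parts the 2 h libraries were above all controls, which stood at 11.66, 31.45 and 51.21 TPM. In roots they were below all controls, which stood at 3828.16, 1836.16 and 2304.45 TPM.

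Glyur000072s00008105 fell from 124.05, 224.82 and 88.94 TPM at 2 h to 0.17, 0.18 and 0.25 TPM at 12 h, a log2 change of -6.83 ± 0.34 (SE; limma adjusted p = 0.00046). The 6 h libraries, at 9.91, 4.89 and 4.46 TPM, and the controls, at 6.40, 3.11 and 5.03 TPM, lay below all of the 2 h and above all of the 12 h libraries. This ID was thus above the controls at 2 h and below them at 12 h. All 4 of these examples stayed called under all of the alternatives run for them. For the fits with each of the 6 libraries left out this was a condition for being an example, so these fits are no check.

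**Figure D3:**
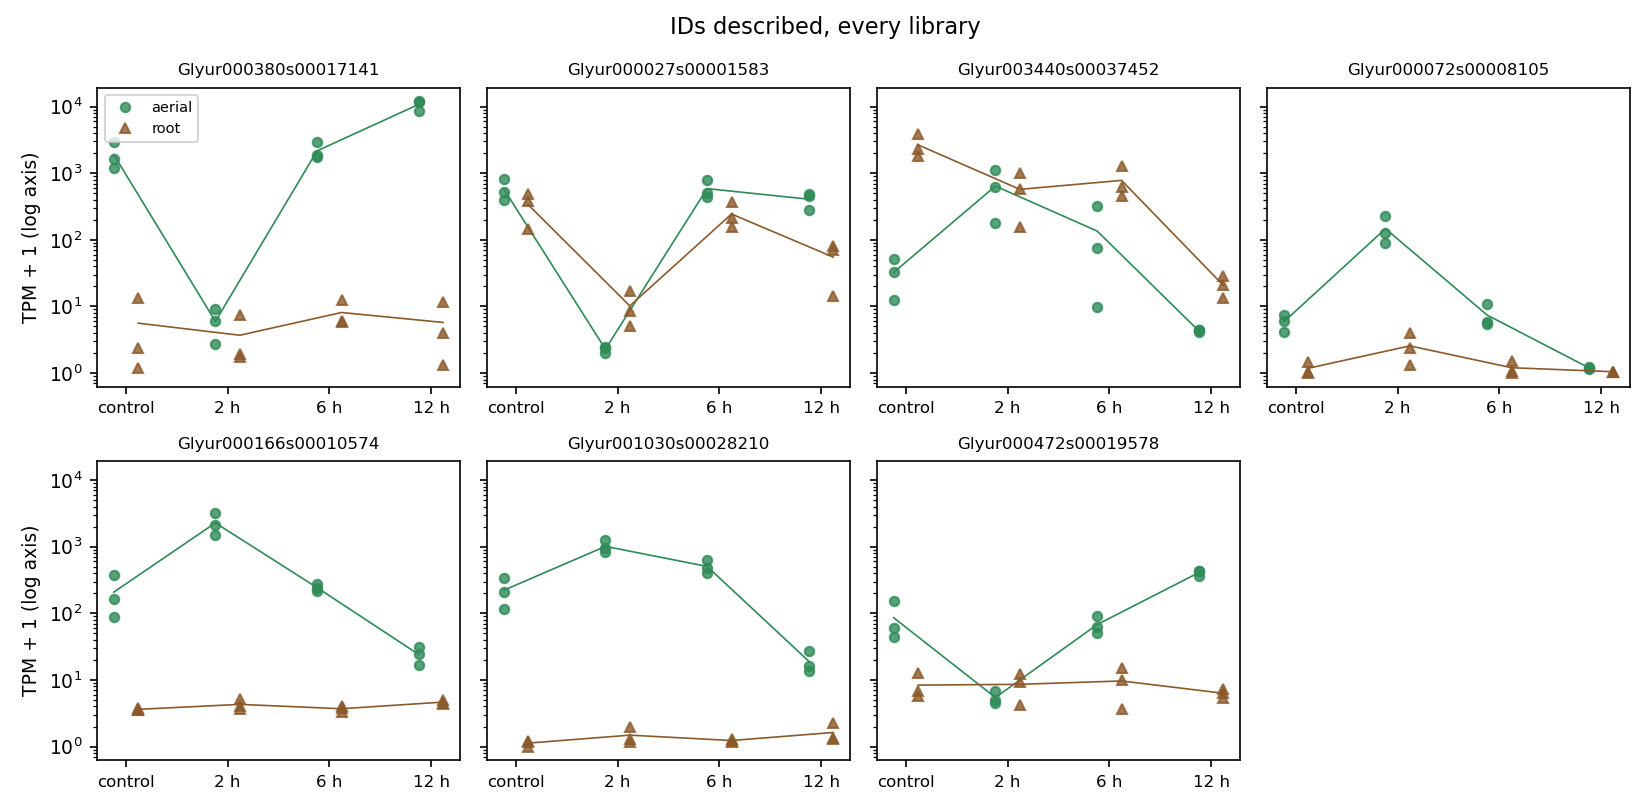
TPM + 1 on a log axis for 7 IDs in each library, by group, with aerial libraries as green circles, root libraries as brown triangles and lines joining group means. In the top row the aerial 2 h libraries of the first and second ID lie below all other aerial libraries, and those of the fourth above all others; in the bottom row the aerial values of Glyur000166s00010574, Glyur001030s00028210 and Glyur000472s00019578 move between 2 h and 12 h while the root values stay within 0 to 14.4 TPM.

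A smaller set of IDs was listed at 0 throughout one time. There were 18 IDs at 0 in all 3 of the 2 h libraries and at 1 TPM or more in all 3 of the 12 h libraries, 16 of them called, with a median of 3.6 TPM at 12 h and a maximum of 12.5 TPM. The reverse held for 26 IDs, 25 of them called, with a median of 4.20 TPM and a maximum of 35.1 TPM at 2 h. These IDs were thus at low levels where they were seen. Above 0 in at least 1 aerial 6 h library were 13 of the 18 and 22 of the 26, and in at least 1 root library in salt 15 and 23. Since depth is unknown, a listed 0 gives no upper limit and no fold change.

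The 6 h libraries took no part in the calls. On a scale where an ID's mean at 2 h is 0 and its mean at 12 h is 1, the median place over the 850 higher IDs was 0.61, 0.53 and 0.54 in 6 h replicates 1, 2 and 3. Over the 622 lower IDs it was 0.52, 0.44 and 0.42. Over all IDs tested it was 0.54, 0.43 and 0.45, so a median near the middle was not particular to the called IDs. Replicate 2 at 6 h correlated less with the 2 h and 12 h libraries (0.803 to 0.830) than the other 6 h libraries did (0.839 to 0.899). The 6 h mean fell between the 2 h and 12 h means in 691 of the 850 higher IDs (81.3%) and in 543 of the 622 lower IDs (87.3%). Over all IDs tested, it fell between in 42.4% of those with a higher mean at 12 h and in 43% of those with a lower one. IDs called for a wide gap between the 2 h and 12 h means are bound to hold another group between them more often. The mean of the controls fell between in 76.6% of the higher and 75.9% of the lower IDs.

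A strict order, with all 2 h libraries below all 6 h libraries and these below all 12 h libraries, was seen in 220 of the higher IDs (25.9%, against 1.90% of all IDs tested). The reverse order was seen in 166 of the lower IDs (26.7%, against 1.21%). Few called IDs went beyond either time at 6 h. Of the higher IDs, 19 had all 6 h libraries above all 12 h libraries (2.24%, against 8.94% of all IDs tested) and 4 had them below all 2 h libraries (0.471%, against 7.09%). Of the lower IDs, 1 had all 6 h libraries below all 12 h libraries (0.161%, against 13.4%) and 5 had them above all 2 h libraries (0.804%, against 9.03%). These orders use the same 2 h and 12 h libraries as the calls, and IDs called for a difference between these times are bound to show the strict order more often and the others less often.

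**Figure D4:**
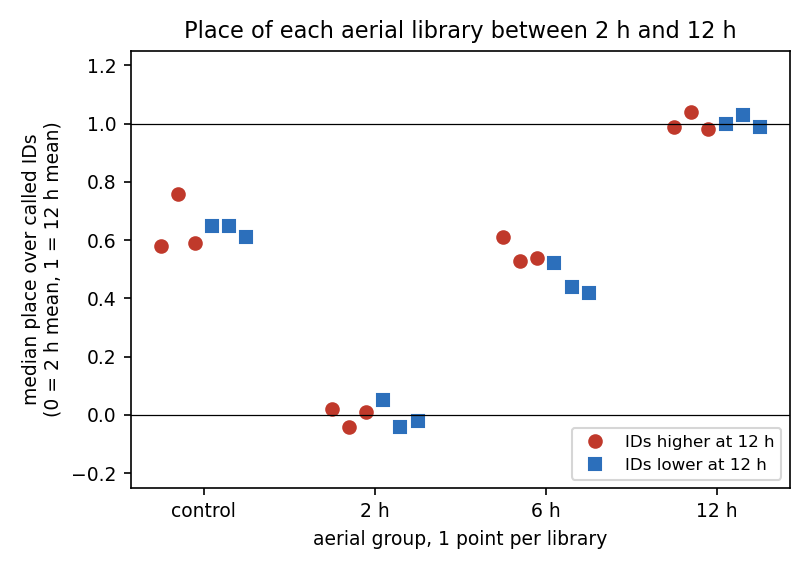
Median place of each aerial library between the 2 h mean (0) and the 12 h mean (1), over the 850 IDs higher at 12 h (red circles) and the 622 lower at 12 h (blue squares), with 1 point per library. The 6 h libraries lie between 0.42 and 0.61 and the controls between 0.58 and 0.76; the 2 h and 12 h libraries lie near 0 and 1 by construction.

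The aerial controls lay nearer to the 12 h than to the 2 h libraries for the called IDs, with a median place of 0.58, 0.76 and 0.59 over the higher and 0.65, 0.65 and 0.61 over the lower IDs. Over all IDs tested it was 0.41, 0.64 and 0.42. The controls differ from both salt groups in medium and in title pattern. The comparisons with them share the 2 h or the 12 h libraries with the calls, so the following counts are descriptions. Of the 850 higher IDs, 544 had all controls above all 2 h libraries (64%, against 15.8% of all IDs tested) and 429 had all controls below all 12 h libraries (50.5%, against 13.8%). In 328 (38.6%, against 8.42%) the 2 h libraries were below the controls and the 12 h libraries overlapped with them. In 229 (26.9%, against 8.49%) the 2 h libraries overlapped with them and the 12 h libraries were above. In 193 (22.7%) both held, with 2 h below and 12 h above. The higher IDs were thus a mixture of those low at 2 h, those high at 12 h and those that were both.

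The lower IDs divided in much the same way. In 259 of the 622 (41.6%, against 5.44% of all IDs tested), the 2 h libraries were above all controls and the 12 h libraries overlapped with the controls. In 132 (21.2%, against 8.81%) the 2 h libraries overlapped with them and the 12 h libraries were below, and in 143 (23%) the 2 h libraries were above and the 12 h libraries below. Over all 15250 IDs tested, these passages from one side of the controls to the other were seen in 259 upward (1.70%) and 154 downward (1.01%). In 70 higher (8.24%) and 66 lower IDs (10.6%) neither time stood apart from the controls, against 56.8% of all IDs tested.

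Roots of seedlings in the same solution were sampled at the same times. In a fit of the 12 root and aerial libraries, 56 of 16034 IDs were called between 2 h and 12 h in roots (0.349%), 21 higher (0.131%) and 35 lower (0.218%), and 12 with only the 6 root libraries in the fit. An unadjusted p under 0.05 was reached by 1449 IDs (9.04%). Without root 12 h replicate 2 or 3 the count of called IDs was 30. Of the aerially higher IDs, all 850 entered this fit, and 675 had a higher mean log2 level at 12 h in roots too (79.4%), with a median log2 change of 0.35 in roots against 1.46 in aerial parts. Over all IDs with a higher aerial mean at 12 h the share was 67.2% and the root median 0.15. Of the lower IDs, 620 entered and 451 were lower in roots (72.7%, against 57.4% over all IDs with a lower aerial mean), with a median of -0.29 against -1.87. The root changes thus had mostly the same sign and a much smaller median. These IDs were called on the aerial change, which favours a larger median in aerial parts. Over all IDs with a higher aerial mean the aerial median was 0.46. Over those with a lower one it was -0.47, with a root median of -0.07. Called in roots in the same direction were 9 of the 850 higher and 17 of the 622 lower IDs, and 1 of each was called in the opposite direction, so 1.18% and 2.90% were called in all.

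Title numbers are shared by an aerial and a root library. The residuals of such pairs correlated at 0.201 to 0.287 over 16034 IDs in each of the 6 pairs. Other pairs of the same time stood at -0.176 to -0.047. Residuals sum to 0 within a group, so positive values in the numbered pairs push the other pairs below 0. The negative values are therefore no separate background. Deviations shared by the libraries of a pair can contribute to a like sign in both organs, and their part in it was not tested.

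The change from 2 h to 12 h itself differed between the organs in 284 of 16034 IDs (1.77%), and in 461 with the title number as a block, which kept all 284. The difference was positive (roots above aerial parts) in 149 (0.929%), of which 145 had a lower aerial mean at 12 h, and negative in 135 (0.842%), of which 132 had a higher one. The aerial change was the larger in size in 263 of the 284, with a median absolute log2 change of 2.29 in aerial parts and 0.22 in roots. Of the IDs called in the aerial comparison, 122 higher (14.4%) and 143 lower (23.1%) were among them. The count was 181 without aerial 2 h replicate 2, 118 and 176 without aerial 12 h replicates 2 and 3, 166 without root 2 h replicate 1, and 161 and 175 without root 12 h replicates 2 and 3. The mean of the root libraries at these times was under 1 TPM for 148 of the 850 higher IDs (17.4%). It was so for 143 of the 622 lower IDs (23%). Over all IDs tested, the share was 18.2% with a higher aerial mean at 12 h and 18.8% with a lower one. Such a level leaves little room for a fall in roots on the log2(TPM + 1) scale, but does not limit a rise.

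**Figure D5:**
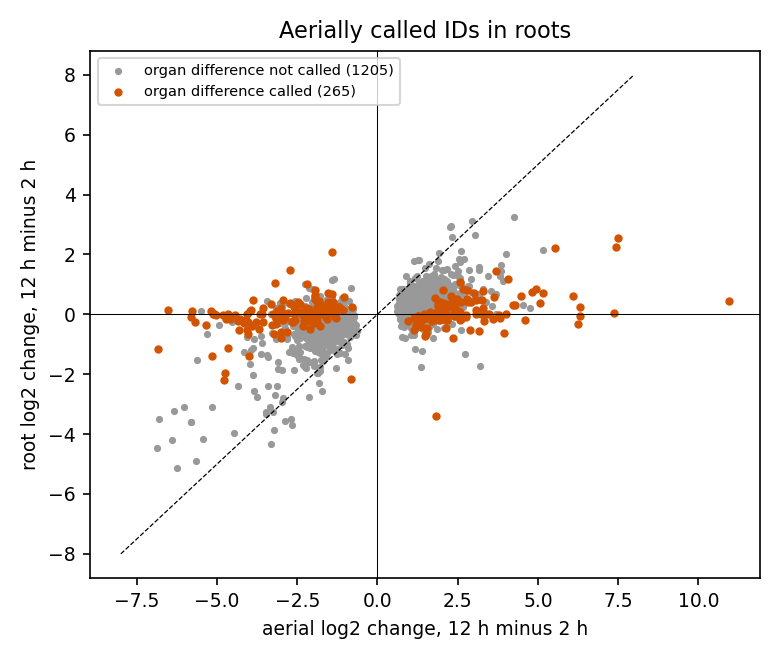
Log2 change from 2 h to 12 h in aerial parts (x axis) and roots (y axis) for the 1470 aerially called IDs that entered both fits, with 1 point per ID, the dashed line marking equal changes and orange points marking the 265 IDs whose organ difference was called. Most points lie closer to the horizontal zero line than to the dashed line, and a small number at the lower left fell in both organs.

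Glyur000166s00010574 had the largest positive difference among the IDs that met the conditions for an example. In aerial parts it fell from 2108.85, 3193.83 and 1517.55 TPM at 2 h to 15.74, 23.44 and 30.03 TPM at 12 h, and in roots it stood at 3.09, 4.17 and 2.63 TPM and then at 4.08, 3.49 and 3.39 TPM (roots minus aerial parts 6.67, SE 0.41, limma adjusted p = 0.000108). Its aerial 6 h libraries, at 236.36, 215.33 and 274.05 TPM, lay between and fell within the range of the controls, 87.75 to 369.91 TPM. Glyur001030s00028210 fell in aerial parts from 830.79, 957.53 and 1240.51 TPM to 15.47, 12.81 and 25.95 TPM and stood at 1.26 TPM or less in every root library (5.89, SE 0.46, limma adjusted p = 0.000206). Both were IDs of high level in aerial parts that were low in roots at every time.

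The largest negative difference among such IDs was that of Glyur000380s00017141, at -10.51 (SE 1.09, limma adjusted p = 0.000712). Next came Glyur000472s00019578, which rose in aerial parts from 5.89, 3.51 and 3.95 TPM to 356.81, 429.14 and 436.33 TPM and stood in roots at 8.32, 11.19 and 3.26 TPM at 2 h and at 4.34, 5.38 and 6.22 TPM at 12 h. Its difference was -6.57 (SE 0.48, limma adjusted p = 0.000204). The aerial 6 h libraries of this ID were at 89.53, 60.82 and 49.88 TPM, between those of 2 h and 12 h, and the controls were at 43.05, 152.38 and 58.65 TPM. In aerial parts this ID thus stood below the controls at 2 h and above them at 12 h.

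The rows of an ID that is listed more than once can move apart, which their sum hides. The files do not say what such rows are, and rows were matched between libraries by their order under the ID. In 7 of 681 IDs with several rows at sufficient level (1.03%), the ratio of a row to the other rows of its ID differed between 12 h and 2 h, and 96 IDs (14.1%) had a row at an unadjusted p under 0.05. In 3 of the 7 the mean share of the row moved by at least 10 percentage points. In 3 of the other 4, a row that held nearly all of the TPM kept doing so while the summed TPM of the ID moved. In the last of them the ID was listed at 0 in all but 1 of the 2 h libraries. With a pseudocount of 0.1 none of the 4 was called (limma adjusted p = 0.136 to 0.243). One such ID was Glyur000072s00008105, whose first row held 96.9% of the TPM at 2 h and 100% at 12 h, and another was Glyur000029s00003643, whose row 3 held 0.734% and 6.21%.

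Among the called rows, the largest move in mean share was in Glyur000283s00016935, whose row 1 held 0.203% at 2 h and 66.6% at 12 h. Its row 1 had a mean of 0.23 TPM and then 7.88 TPM, and its row 3 of 116 TPM and then 4.22 TPM. Row 3 was listed at 0 in 12 h replicate 2, and the call of this ID was lost in 6 of 9 alternatives. An exchange with both rows above 0 in every 2 h and 12 h library was seen in Glyur000016s00003072. Its first row stood at 232.10, 221.50 and 168.40 TPM at 2 h and at 32.17, 22.97 and 27.34 TPM at 12 h, while its second row went from 81.15, 91.54 and 101.70 TPM to 130.95, 116.65 and 137.16 TPM. The first row thus held 62.3% to 74.1% of the ID at 2 h and 16.5% to 19.7% at 12 h, with no overlap (log2 change of the ratio -3.36, SE 0.28, limma adjusted p = 0.00924). At 6 h it held 57.3% to 69.6%, which overlapped with the 2 h libraries, and in the controls 39.6% to 69.4%. In roots it was listed at 0 in every 2 h, 6 h and 12 h library, where the second row held all of the TPM. In the root controls the first row stood at 37.29, 0 and 33.89 TPM, or 42.7%, 0% and 53.7% of the ID. In Glyur000677s00026182 the first row held 43%, 57.6% and 71.8% at 2 h and was listed at 0 in all 12 h libraries. The second row stood at 3.56, 4.52 and 4.23 TPM and then at 18.62, 8.77 and 8.51 TPM (ratio of the second row 4.02, SE 0.52, limma adjusted p = 0.0341). Both rows of this ID were listed at 0 in all aerial 6 h libraries. In the aerial controls the first row was at 0 throughout and the second at 1.98, 0 and 0 TPM. The calls on rows were fragile. Their number was 2 with a pseudocount of 0.1, 21 with one of 5, 2 without 12 h replicate 2 or 3, and 0 without 12 h replicate 1 in limma, where 91 IDs had a row at an unadjusted p under 0.05. For Glyur000016s00003072 the adjusted p was then 0.0605, and over its alternatives it was 0.00264 to 0.0605. The call of Glyur000677s00026182 was lost in 6 of 9 alternatives, over which its limma adjusted p was 0.0196 to 0.171.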

How the data were processed

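Total RNA was sequenced in 24 libraries, of which the 3 aerial libraries at 2 h and the 3 at 12 h of salt form the comparison. Values are TPM per the file headers, as the authors deposited them. Tools listed in the submitters' processing notes, with no role, are DESeq2, edgeR, fastp, HISAT2, RSEM and StringTie. Their versions, the genome and its annotation were not given in the sources used here. Each file lists 38135 rows for 34445 IDs. Rows were summed per ID. The listed TPM make 43.2% to 46% of the full scale in the 6 libraries, and depth is unknown, so no counting interval is given.

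IDs with a mean TPM of 0.5 or more in the 6 libraries were tested on log2(TPM + 1). The test was limma's (version 3.58.1, R 4.3.3), with a trend of variance on mean, two-sided, with Benjamini-Hochberg adjustment over all IDs tested. Fold changes on this scale understate those of low IDs. Controls, 6 h and root libraries stayed out of this fit. The organ difference was the interaction in a fit of 12 libraries. Row ratios were tested on log2 of a row + 1 minus log2 of the other rows + 1, with both means 0.5 TPM or more. Values per library were compared by exact permutation in scipy 1.17.1. The fits were tested on simulated data.

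Examples were the 2 IDs with the largest rise and the 2 with the largest fall in each comparison. They had to be called, to have a mean of at least 10 TPM in one group, groups that did not overlap and no library at 0, and to stay called with each library left out. For rows the last clause was relaxed. Planned lists of genes found no names to match. Title numbers pair aerial with root libraries, by the correlation given with the organ comparison. The comparison and its tests were chosen with earlier results of these data known.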

Additional observations from a re-analysis of the deposited data

Results flagged for a closer look

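Among the 7 IDs named for their summed TPM, 6 had a change from 2 h to 12 h that differed between roots and aerial parts by the interaction test in limma. The difference, roots minus aerial parts on the log2 scale, was 6.67 for Glyur000166s00010574, 5.89 for Glyur001030s00028210, -10.51 for Glyur000380s00017141, -6.57 for Glyur000472s00019578, -5.18 for Glyur000027s00001583 and 5.68 for Glyur000072s00008105. With the title number as a block their adjusted p in limma was 3.22e-05, 9.52e-05, 0.000275, 7.62e-05, 0.0047 and 0.000379 in the same order. All of them were taken as extremes among IDs that met the conditions for an example, either in this difference or in the aerial change, so their size is not typical of the 284 called. Glyur000166s00010574, Glyur001030s00028210, Glyur000380s00017141 and Glyur000472s00019578 were chosen as examples of this difference, for which its call was a condition. The count of 6 therefore cannot be set against the 1.77% of 16034 IDs called in all. No group had enough libraries for a check of single outlying samples.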

How the results depend on the processing

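The aerial count of 1472 IDs was 1024 to 1601 under alternatives of pseudocount, filter, scaling, trend, row choice and libraries in the fit. Library quality weights gave 2563, with 1512 higher and 1051 lower, and a 2-fold minimum 1275. With 1 library left out, the count was 455 to 1559, with 221 to 778 higher and 234 to 781 lower. The organ difference, 284 IDs, came to 137 and 462 with pseudocounts of 0.1 and 5, 647 with quality weights, 461 with the replicate block and 118 to 386 with 1 library left out. Roots gave 56 IDs, 12 with only their 6 libraries, 52 with the replicate block and 30 to 50 with 1 library left out. The aerial comparison has no block, since its groups share no title number. The row count of 7 was 2 and 21 with pseudocounts of 0.1 and 5, and 0 to 5 with 1 library left out. The 12 h minus 2 h differences per library were 11110 to 20810 for the listed TPM with 1 library left out, -237 to 123 for IDs above 0, -330.3 to 374.7 for IDs of at least 1 TPM and 0.23 to 5.275 percentage points for the 100 highest IDs, so the direction was not stable for the counts of IDs. The place of the 6 h libraries, 0.543 for higher IDs, was 0.634 over IDs called with each library left out. That of the controls for lower IDs, 0.646, was 0.612 with a pseudocount of 0.1, 0.713 with scaling to the listed total and 0.596 over IDs called with each library left out. The cause was not tested for any of these. The 156 values under alternatives of the example IDs other than rows kept their sign and their side of the threshold. Those with 1 library left out were bound to do so, since staying called there was a condition for an example. Of 63 such values for the row ratios, 33 lost the call and none changed sign, among them 3 of 9 for Glyur000016s00003072 and 6 of 9 for Glyur000677s00026182. Root fits with the block or with a library left out, and the place over IDs always called, were chosen after seeing the data.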
